A study of Saccharomyces cerevisiae with 12 samples.

Results

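The genes described here are 34 genes of Saccharomyces cerevisiae that act from G2 to the end of cell division: genes of the CLB2 cluster, of the mitotic exit network and of cytokinesis. They were chosen by name, from gene function and with earlier results of these data known, and all 34 were found among the 7126 genes of every library, had a mean of at least 1 FPKM (a density of sequenced fragments, corrected for the length of the gene and the size of the library), and were tested. RNA was sequenced from wild-type BY4741, a haploid laboratory strain of mating type a, carrying either pBY011-YOX1, which drives YOX1 from the galactose-inducible GAL1-10 promoter, or pBY011, the empty control vector. Both strains grew in medium without uracil with raffinose as the carbon source and were sampled untreated (0 h). Galactose was then added together with hydroxyurea (HU) at 200 mM, and the cultures were sampled again at 2 h and at 4 h, with 2 biological replicates for each of the 6 groups. Galactose and HU were given together, so the changes over time are a joint response to both agents, and the comparison of the vectors at one time holds both agents constant. HU inhibits ribonucleotide reductase and slows DNA replication.

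In budding yeast the genes of the CLB2 cluster are transcribed from late S phase to mitosis by Mcm1 bound together with the forkhead proteins Fkh2 and Fkh1 and the coactivator Ndd1. Yox1 and its relative Yhp1 are homeodomain repressors that bind DNA beside Mcm1. The cluster encodes the mitotic cyclins, the polo kinase and the transcription factor Swi5, and the mitotic exit network then carries a signal from the GTPase Tem1 through the kinases Cdc15 and Dbf2 to the phosphatase Cdc14, which inactivates mitotic cyclin-dependent kinase and lets the cell build its septum. In a bulk culture, fewer cells in mitosis and less of a transcript in each mitotic cell cannot be told apart, and this holds for each difference below.

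YOX1 itself, which checks the labels, stood at 91.3 and 90.9 FPKM in YOX1 cells at 0 h, at 3862 and 3312 FPKM at 2 h and at 2599 and 2458 FPKM at 4 h. In control cells it was between 29.8 and 40.8 FPKM in all 6 libraries. The difference at 0 h preceded galactose (log2 change 1.52, SE 0.10, adjusted p = 0.00209). Defining markers followed the strain's mating type, with the summed FPKM of 5 a-specific genes between 618 and 8568 and of 3 alpha-specific genes between 15.8 and 29.4 in every library. The a-specific sum was 618 to 820 FPKM in YOX1 cells and 2572 to 2851 FPKM in control cells at 2 h, and 628 to 812 FPKM in YOX1 cells and 2316 to 3132 FPKM in control cells at 4 h. The sum was carried by MFA1 and MFA2, whose log2 change between the vectors at 4 h was -1.44 and -3.27, whereas that of BAR1 was 1.19, of STE2 0.57 and of STE6 0.12. The part of these genes in the results below was not tested. Depth implied by the deposited intervals was 9660000 to 18100000 fragments a library, and the members' estimates rested on an implied 94 (SPO12) to 6734 (NCE102) fragments.

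The promoters were examined for the motifs of the factors named above, in the 700 bases before each start codon, on both strands and whether or not the window runs into a neighbouring gene. A forkhead core (GTAAACA) was found upstream of 17 of 34 members (50%), against 13.6% of 6005 genes. Mcm1 half-sites (CCNNNNNNGG) were found upstream of 28 members (82.4%), against 63.9% of genes, and the homeodomain core (TAATTA) upstream of 10 members (29.4%), against 29.8% of genes. Half-sites lying within 10 bases of a forkhead core, or overlapping it, were upstream of 9 members (26.5%) and of 51 genes in all (0.849%). A homeodomain core in the same relation to half-sites was upstream of 2 members (5.88%) and of 59 genes in all (0.983%). These 11 windows are shown because they hold the motif pairs of Mcm1 with its partners. Each stretch is written from 5′ to 3′ on the strand of its gene, and capitals mark CC and GG of the half-sites and the partner's core, or their complement:
SPO12: CCtaatttGGaaatatGTAAACA
CLB1: TGTTTACaaccgCCcaaagaGG
SWI5: CCtgtttaGGaaaaagGTAAACA
MYO1: CCcaaaagGGtaattgcGTAAACA
BUD8: CCgaaaaaGGTAAACA
HOF1: CCtctttgGGcaagttGTAAACA
ALK1: CCctttttGGtaaaacGTAAACA
BUD4: CCcgatttGGaaaaagGTAAACA
SUR7: CCcaatcgGGaaaattGTAAACA
DBF2: CCtttttaGGaaatgTAATTA
KIN3: CCTAATTAGG

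The genome is RefSeq's copy of release R64, in which 5994 of 6048 matched genes have the coordinates of the deposited tables (sacCer3). Each stretch lies between annotated genes, upstream of the coding sequence it is named for: SPO12 at chrVIII:401192-401214, CLB1 at chrVII:703008-703029, SWI5 at chrIV:751037-751059 (minus strand), MYO1 at chrVIII:151478-151501, BUD8 at chrXII:833779-833794, HOF1 at chrXIII:335082-335104, ALK1 at chrVII:454682-454704, BUD4 at chrX:598538-598560, SUR7 at chrXIII:170215-170237, DBF2 at chrVII:667943-667963 and KIN3 at chrI:171829-171838 (minus strand). In 6 of the 9 forkhead pairs 6 bases stood between GG and the core, in MYO1 7 bases, and in BUD8 the core overlapped the last base of GG, whereas in CLB1 the core came before the half-sites on the opposite strand, 628 bases from the start codon. In KIN3 the homeodomain core filled the 6 bases between CC and GG. A match of letters is a description of the window and not a binding site.

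**Figure D1:**
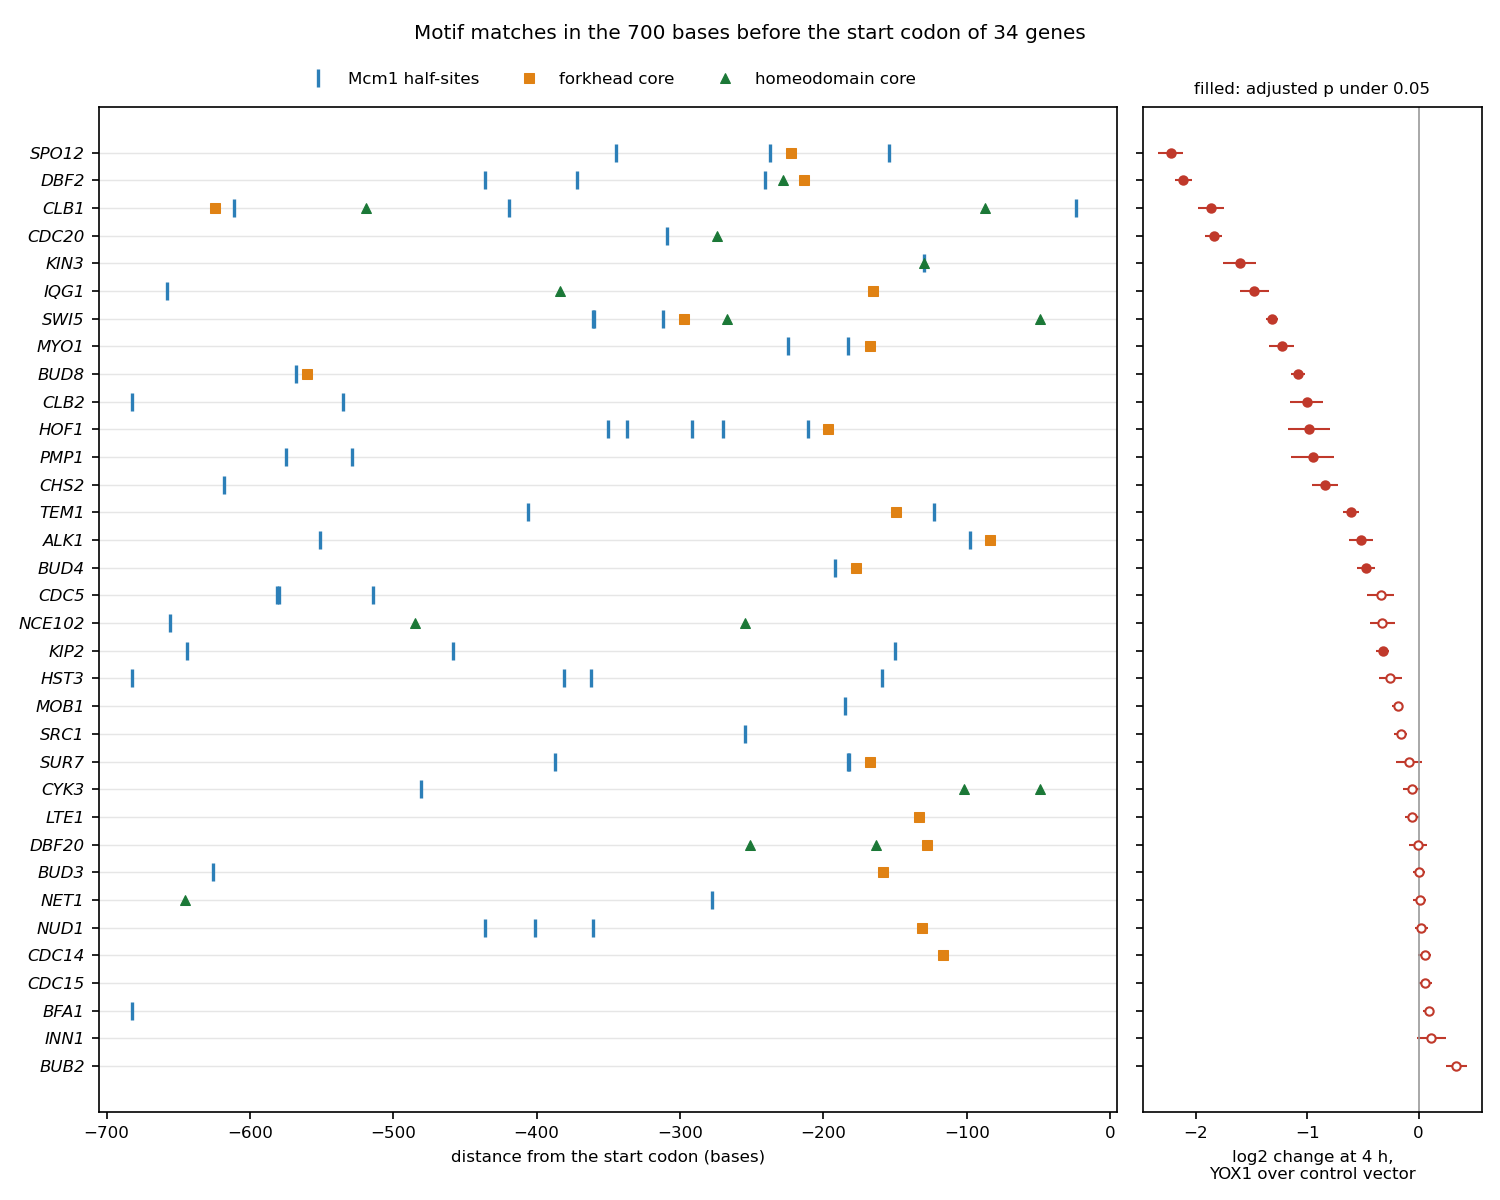
Positions of motif matches (left; horizontal axis, distance from the start codon in bases) for the 34 genes, ordered from top to bottom by their log2 change between vectors at 4 h (right; bars, SE; filled points, adjusted p under 0.05). The 9 genes with half-sites next to a forkhead core include 8 of the 17 that were lower in YOX1 cells, and SUR7.

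After induction many of the members were lower in YOX1 cells than in control cells, and none was called higher. The members furthest below control cells at 4 h were SPO12, DBF2, CDC20 and CLB1, each at 20.7% to 26.8% of the control level. For CLB1 the control level had itself risen from 0 h. DBF20, CDC14, CDC15 and BUD3 lay between 99.3% and 104% of it and were not called. In limma with Benjamini-Hochberg adjustment over all genes tested, 0 of 34 members were called in either direction at 0 h, where 1 had an unadjusted p under 0.05 (TEM1, lower), beside a background of 0.0145% of genes called lower and 0.0145% called higher. At 2 h 10 members were lower and 0 higher, against 1.68% and 0.261% of all genes, and before adjustment 0 members were higher at a p under 0.05. At 4 h 17 members were lower and 0 higher, against 4.31% and 1.92% of all genes, and before adjustment 1 member (BUB2) was higher at a p under 0.05. The median log2 change of the members was -0.02 at 0 h, -0.28 at 2 h and -0.33 at 4 h, where the median of all genes was -0.01, 0.00 and 0.01. When the spread was estimated from the 4 compared libraries alone, 6 members stayed called at 4 h: BUD8, CDC20, CLB1, DBF2, SPO12 and SWI5. Set beside the promoters, 8 of the 9 members with half-sites next to a forkhead core were lower at 4 h (88.9%), as were 9 of the other 25 (36%). The CLB2 cluster was listed as genes that Mcm1 and the forkhead proteins transcribe, so this split partly follows the choice of members. DBF2 and IQG1 are among the 25, as their forkhead core lies more than 10 bases from their half-sites. CLB2 itself, CDC5, CDC20, CHS2 and KIN3 are also among them, with no exact match to the forkhead core in the window. Only exact letters were searched, so the split does not separate genes of the CLB2 cluster from the other members. Outside the members, 12 of 41 tested genes with half-sites next to a forkhead core were lower at 4 h (29.3%), with a median log2 change of 0.01. Some of the 41 are neighbours of a member on the opposite strand, whose windows can hold the same stretch. EKI1 lies beside SWI5, MTC6 beside SPO12, JSN1 beside BUD4 and EIS1 beside HOF1. The 41 are therefore not all separate from the members' promoters. Both members with the homeodomain pair were lower at 2 h and at 4 h. In DBF2 the core lies beside the half-sites, and in KIN3 it lies between CC and GG, so that 1 stretch counts as both motifs. Of 56 other tested genes with that pair, 3 were lower at 2 h (5.36%), and at 4 h 10 were lower (17.9%) and 3 higher, with a median of -0.06.

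**Figure D2:**
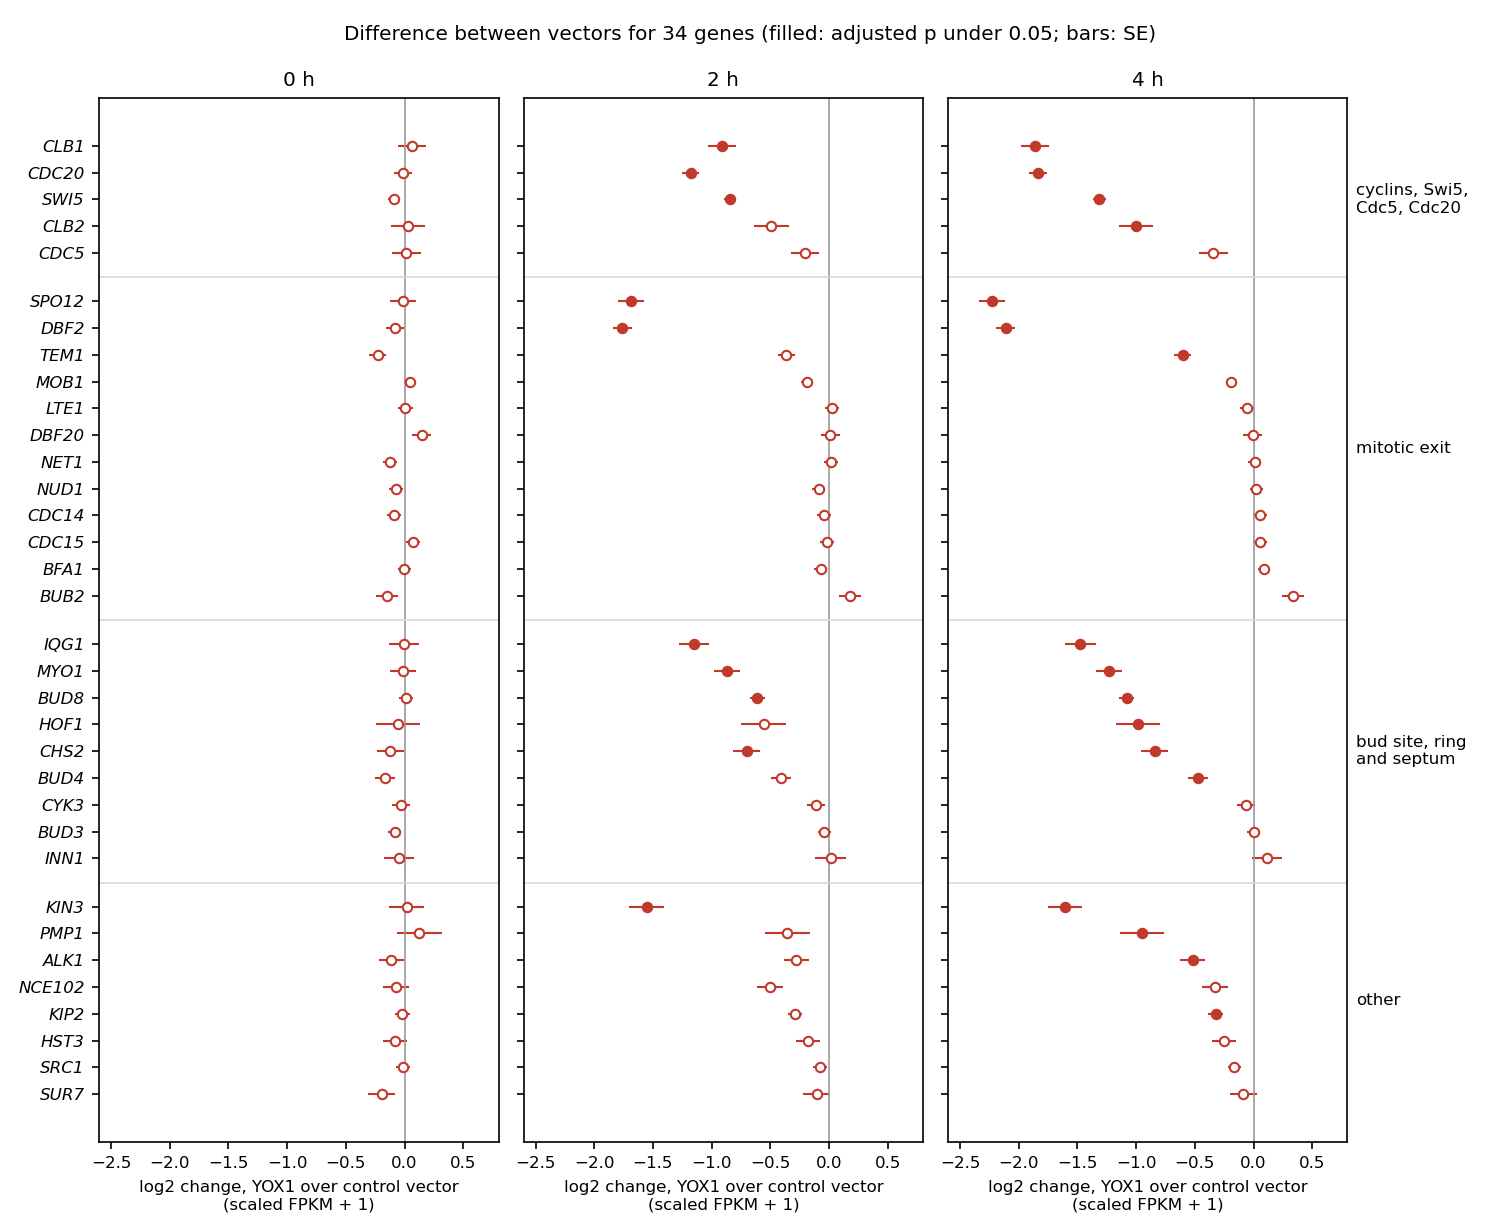
Log2 change of scaled FPKM + 1 between YOX1 and control cells (horizontal axis) for each of the 34 genes at 0 h, 2 h and 4 h, with bars for the SE and filled points for an adjusted p under 0.05. At 0 h the genes lie close to 0, and at 2 h and 4 h the called genes, 10 and 17 of them, all lie to the left, beside members of the same roles that stay near 0.

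The cyclins and regulators of mitosis were the group with the largest share of calls, 3 of 5 at 2 h and 4 of 5 at 4 h, with CDC5 in neither. Beside the counts of this role and of those below, 1.68% of all genes were lower at 2 h and 4.31% at 4 h. CLB1 (YGR108W, chrVII:703636-705051) encodes a B-type mitotic cyclin. It was at 61.8 and 48.4 FPKM in YOX1 cells and 49.7 and 52.5 FPKM in control cells at 0 h. At 2 h its level was 34.7 and 35.5 FPKM in YOX1 cells, against 64.8 and 65.7 FPKM in control cells. At 4 h the libraries gave 27.9 and 24.4 FPKM in YOX1 cells, against 105 and 85.1 FPKM in control cells. The strains overlapped before treatment and were apart at both later times, with control cells above their untreated level and YOX1 cells below it. The log2 change between vectors was -0.91 at 2 h (SE 0.12, adjusted p = 0.00745) and -1.86 at 4 h (SE 0.12, adjusted p = 8.3e-05), and the 2 h call was lost on leaving out any 1 of the 4 libraries (log2 change -0.91 each time), which also leaves fewer libraries in the fit.

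CLB2 (YPR119W, chrXVI:771653-773128), the main mitotic cyclin of budding yeast, stood at 47.4 and 38.5 FPKM in YOX1 cells and 37.5 and 44.3 FPKM in control cells before treatment. At 2 h it was at 21.2 and 23.2 FPKM in YOX1 cells, against 31.4 and 30.3 FPKM in control cells, and at 4 h at 25.2 and 20.4 FPKM in YOX1 cells, against 50.9 and 40.0 FPKM in control cells. The strains were apart at both treated times, and the YOX1 libraries hardly moved between 2 h and 4 h. The difference at 2 h was -0.49 on the log2 scale and did not pass (SE 0.15, adjusted p = 0.208), and at 4 h CLB2 was called lower, at 48.9% of the control level (SE 0.15, adjusted p = 0.00607 on the log2 scale).

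SWI5 (YDR146C, chrIV:748613-750742) encodes the transcription factor that switches on genes at the end of mitosis. Untreated cells had 59 and 55.9 FPKM with the YOX1 vector and 60.7 and 58.5 FPKM with the control vector. At 2 h YOX1 cells held 15.8 and 15.9 FPKM, against 29 and 28.1 FPKM in control cells, and at 4 h 16.4 and 16.7 FPKM in YOX1 cells, against 43.6 and 39.1 FPKM in control cells. Replicates differed little, and after treatment the strains did not overlap. The log2 changes were -0.84 at 2 h (SE 0.05, adjusted p = 0.000231) and -1.31 at 4 h (SE 0.05, adjusted p = 8.76e-06).

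CDC20 (YGL116W, chrVII:289809-291641) encodes the activator of the anaphase-promoting complex that starts anaphase. Its level was 32 and 30.9 FPKM in YOX1 cells and 31.6 and 30.4 FPKM in control cells at 0 h. YOX1 cells had 5.88 and 5.6 FPKM at 2 h, against 14.6 and 13.4 FPKM in control cells, and 5.64 and 5.71 FPKM at 4 h, against 23.7 and 20.6 FPKM in control cells. All 4 treated YOX1 libraries lay below every control library. CDC20 was at 40.1% of the control level at 2 h (log2 change -1.18, SE 0.08, adjusted p = 0.000271) and at 24.9% at 4 h (-1.84, SE 0.08, adjusted p = 1.02e-05). Between these times the YOX1 libraries hardly moved and the control libraries rose.

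CDC5 (YMR001C, chrXIII:269019-271136), the polo kinase, was the regulator that passed in neither comparison. It was at 53.1 and 41.4 FPKM in YOX1 cells and 45.2 and 45.1 FPKM in control cells at 0 h, at 23.9 and 24.4 FPKM in YOX1 cells, against 27.3 and 27.3 FPKM in control cells, at 2 h. At 4 h CDC5 was at 29.8 and 27.9 FPKM in YOX1 cells, against 40.4 and 31.5 FPKM in control cells. The YOX1 libraries were the lower ones at both treated times by a margin smaller than for the other regulators. Its log2 change was -0.21 at 2 h (SE 0.12, adjusted p = 0.609) and -0.34 at 4 h (SE 0.12, adjusted p = 0.157).

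**Figure D3:**
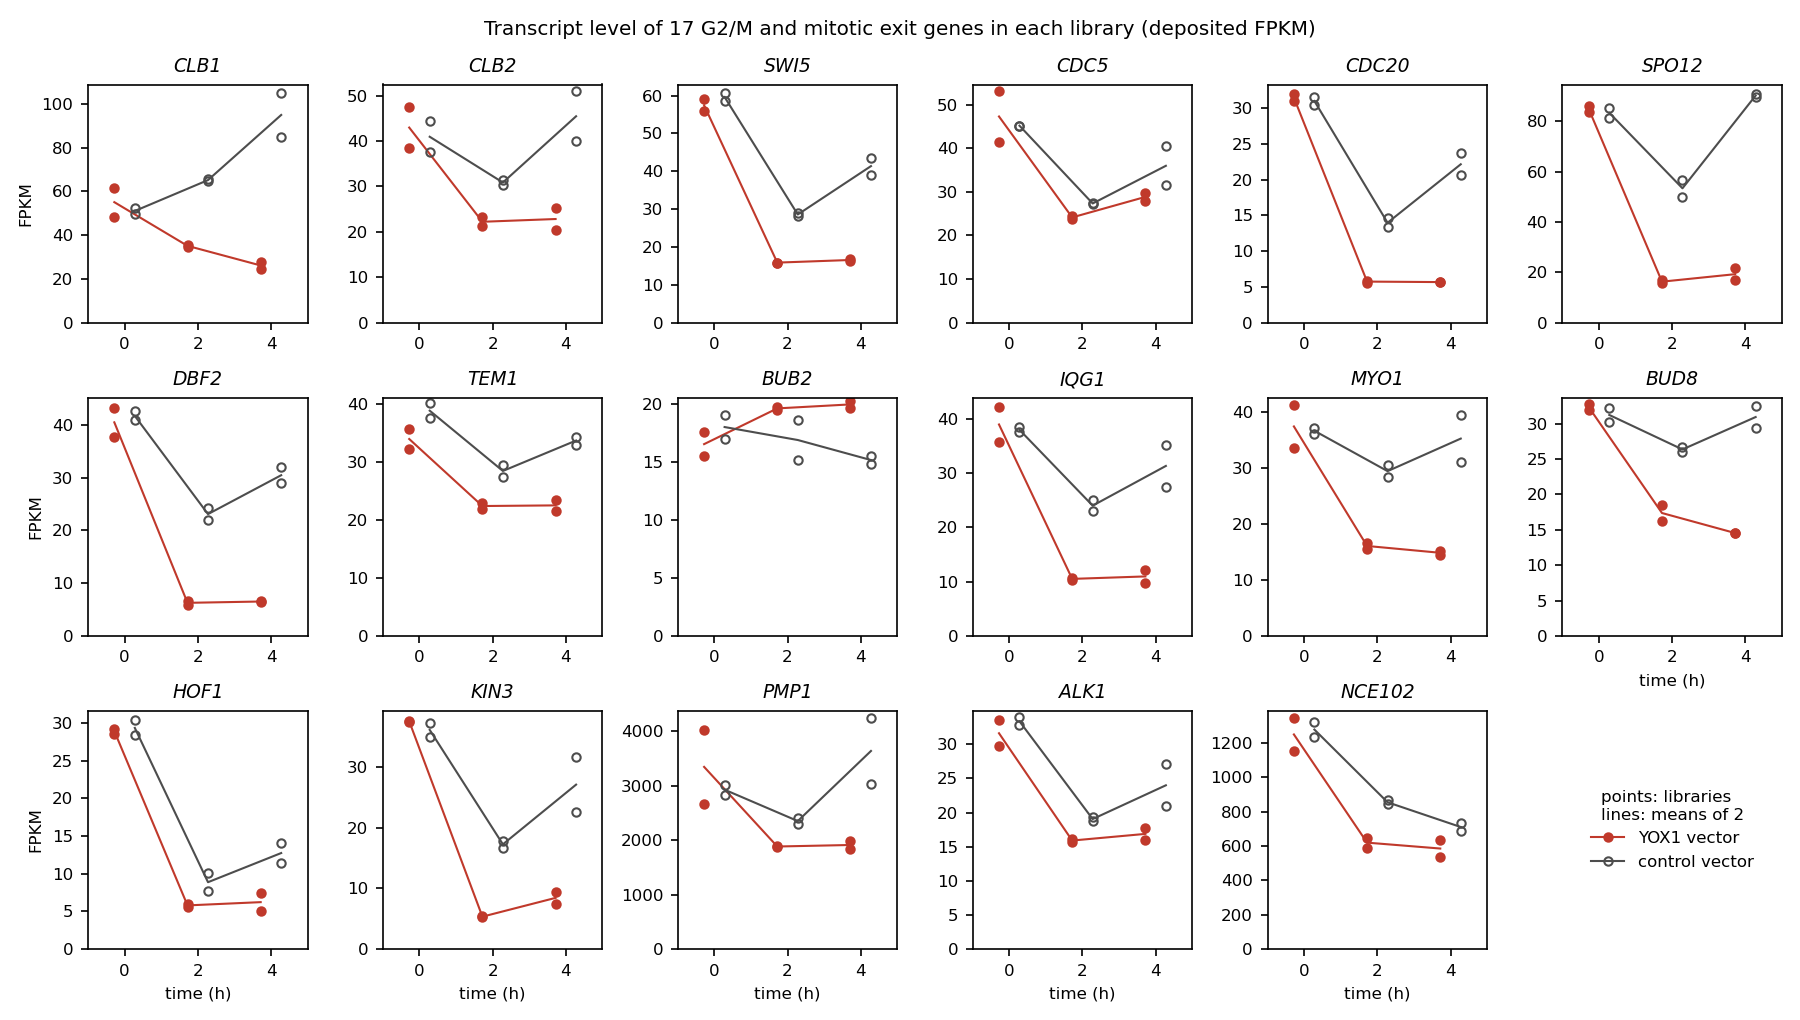
FPKM as deposited (vertical axis, from 0) in each library against time (0, 2 and 4 h) for 17 members, with YOX1 cells as filled points to the left and control cells as open points to the right, and lines through the means of 2 libraries. For most genes both strains start level, and control cells dip at 2 h and are higher again at 4 h. YOX1 cells fall at 2 h and stay low for most genes. CLB1 is higher in treated than in untreated control cells, and BUB2 is not lower in YOX1 cells at 2 h or 4 h.

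The 12 genes of mitotic exit split by gene: 2 were lower in YOX1 cells at 2 h and 3 at 4 h, and the median log2 change of the group was -0.06 at 2 h and 0.00 at 4 h. SPO12 (YHR152W, chrVIII:401434-401955) encodes a nucleolar protein that promotes the early release of Cdc14. It stood at 86.2 and 83.6 FPKM in YOX1 cells and 81.4 and 85.5 FPKM in control cells at 0 h. At 2 h it was at 16.8 and 15.8 FPKM in YOX1 cells, against 50.1 and 56.7 FPKM in control cells, and at 4 h at 21.6 and 16.9 FPKM in YOX1 cells, against 89.7 and 90.9 FPKM in control cells. Control cells were back near their untreated level at 4 h, whereas YOX1 cells stayed far below it. The log2 change was -1.69 at 2 h (SE 0.11, adjusted p = 0.000271) and -2.23 at 4 h (SE 0.11, adjusted p = 2.65e-05), where it stood at 20.7% of the control level.

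DBF2 (YGR092W, chrVII:668189-669907) and DBF20 (YPR111W, chrXVI:747306-749000) encode paralogous kinases that act with Mob1. DBF2 had 43.3 and 37.7 FPKM in YOX1 cells and 40.8 and 42.5 FPKM in control cells at 0 h. It was at 5.91 and 6.61 FPKM in YOX1 cells, against 24.2 and 22 FPKM in control cells, at 2 h. At 4 h DBF2 was at 6.65 and 6.37 FPKM in YOX1 cells, against 31.9 and 29 FPKM in control cells. The treated YOX1 libraries lay close together and well below all control libraries. DBF2 changed by -1.76 on the log2 scale at 2 h (SE 0.08, adjusted p = 3.95e-05) and by -2.11 at 4 h (SE 0.08, adjusted p = 5.54e-06). DBF20 stayed between 17.8 and 22.7 FPKM in all 12 libraries, and differed between vectors by 0.01 (2 h) and -0.01 (4 h) on the log2 scale, neither past the threshold. No stretch of 50 bases, the length of a read, is shared by the 2 paralogs or by any member with another place in the genome.

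TEM1 (YML064C, chrXIII:145139-145876), the GTPase at the head of the network, was at 35.7 and 32.1 FPKM in YOX1 cells and 40.1 and 37.5 FPKM in control cells at 0 h. At 2 h it had 22.8 and 21.9 FPKM in YOX1 cells, against 27.3 and 29.5 FPKM in control cells, and at 4 h 23.5 and 21.5 FPKM in YOX1 cells, against 34.3 and 33 FPKM in control cells. The YOX1 libraries were the lower ones at each time, before treatment included. Its log2 change was -0.23 at 0 h (SE 0.07, adjusted p = 0.636), -0.36 at 2 h (SE 0.07, adjusted p = 0.0513) and -0.60 at 4 h (SE 0.07, adjusted p = 0.0023), and only the last passed. The 2 h change passed in 3 alternatives, at an adjusted p of 0.0451 with a mean of at least 10 FPKM, 0.0456 with robust moderation and 0.0425 with the replicate number as a block.

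BUB2 (YMR055C, chrXIII:386101-387021) and BFA1 encode the paired GTPase-activating protein that holds Tem1 inactive. BUB2 was at 17.6 and 15.5 FPKM in YOX1 cells and 17 and 19.1 FPKM in control cells at 0 h, at 19.5 and 19.8 FPKM in YOX1 cells, against 15.2 and 18.7 FPKM in control cells, at 2 h. At 4 h BUB2 was at 20.3 and 19.7 FPKM in YOX1 cells, against 15.5 and 14.9 FPKM in control cells. The strains overlapped at 0 h and the YOX1 libraries were the higher ones afterwards, by 0.34 on the log2 scale at 4 h, which did not pass (SE 0.09, adjusted p = 0.0892). The other 7 members of the group, besides DBF20, did not pass either and lay between -0.19 (MOB1) and 0.02 (LTE1) at 2 h and between -0.19 (MOB1) and 0.09 (BFA1) at 4 h. They are MOB1, the partner of Dbf2, LTE1, a promoter of exit in the bud, CDC15, the kinase that acts on Dbf2 and Mob1, NUD1, the spindle pole scaffold of the network, BFA1, CDC14, and NET1, which holds Cdc14 in the nucleolus. KIN3 and CDC15 lie next to each other on chromosome I on the same strand. CDC15, from 15.4 to 22.1 FPKM over the 12 libraries, differed between vectors by -0.02 and 0.06, where its neighbour was lower in YOX1 cells. CDC15, NET1 and SRC1 each overlap an annotated gene (YAR019W-A, APQ13 and YML034C-A), and the libraries keep no strand, so reads of such pairs cannot be told apart.

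Among the 9 genes of bud site, contractile ring and septum, 4 were lower in YOX1 cells at 2 h and 6 at 4 h, and the group's median log2 change was -0.56 at 2 h and -0.84 at 4 h. IQG1 (YPL242C, chrXVI:90622-95109) encodes the IQGAP protein that recruits actin to the ring. Untreated cells had 42.2 and 35.6 FPKM with the YOX1 vector and 38.4 and 37.5 FPKM with the control vector. At 2 h IQG1 was at 10.3 and 10.6 FPKM in YOX1 cells, against 25 and 22.9 FPKM in control cells, and at 4 h at 12.1 and 9.82 FPKM in YOX1 cells, against 35.1 and 27.5 FPKM in control cells. The treated strains were apart by more than the distance between any replicates. Its log2 change was -1.15 at 2 h (SE 0.13, adjusted p = 0.00359) and -1.47 at 4 h (SE 0.13, adjusted p = 0.00044).

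MYO1 (YHR023W, chrVIII:151666-157452), the heavy chain of myosin II in the ring, had 41.2 and 33.6 FPKM in YOX1 cells and 37.2 and 36 FPKM in control cells at 0 h. It was at 15.5 and 16.6 FPKM in YOX1 cells, against 30.5 and 28.3 FPKM in control cells, at 2 h. At 4 h MYO1 was at 15.2 and 14.5 FPKM in YOX1 cells, against 39.4 and 31.1 FPKM in control cells. Control cells at 4 h were near their untreated level, and all treated YOX1 libraries lay below every control library. The change was -0.87 on the log2 scale at 2 h (SE 0.11, adjusted p = 0.00673), a call that was lost without replicate 1 of either strain at 2 h (-0.81 without the control library, -0.84 without the YOX1 library), and -1.23 at 4 h (SE 0.11, adjusted p = 0.000513).

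BUD8 (YLR353W, chrXII:834352-836163) marks the pole of the cell away from the birth scar. It stood at 32.8 and 31.9 FPKM in YOX1 cells and 30.3 and 32.2 FPKM in control cells at 0 h. YOX1 cells had 16.3 and 18.4 FPKM at 2 h, against 26.8 and 26 FPKM in control cells, and 14.6 and 14.5 FPKM at 4 h, against 32.5 and 29.4 FPKM in control cells. Control libraries at all times lay above every treated YOX1 library. The log2 change was -0.61 at 2 h (SE 0.06, adjusted p = 0.00227) and -1.08 at 4 h (SE 0.06, adjusted p = 5.71e-05). The 2 h call was lost when the spread came from the 4 compared libraries alone (adjusted p = 0.1).

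HOF1 (YMR032W, chrXIII:335298-337307), which links ring contraction to septum growth, was at 29.2 and 28.6 FPKM in YOX1 cells and 30.3 and 28.3 FPKM in control cells at 0 h. At 2 h it had 6.04 and 5.55 FPKM in YOX1 cells, against 10.1 and 7.64 FPKM in control cells, and at 4 h 7.46 and 4.99 FPKM in YOX1 cells, against 14.1 and 11.4 FPKM in control cells. Both strains fell steeply, and at 4 h the YOX1 libraries differed from each other by nearly as much as the control libraries did. The difference at 4 h was -0.98 (SE 0.19, adjusted p = 0.0219), and it was no longer called on leaving out either control library or YOX1 replicate 2 at 4 h (-0.72 to -1.11). CHS2, the chitin synthase of the primary septum, was lower at 2 h (-0.70, SE 0.12, adjusted p = 0.0226) and at 4 h (-0.84, SE 0.12, adjusted p = 0.0046), and the call at 2 h was lost without any 1 of its 4 libraries. BUD4, an axial bud site protein, was lower at 4 h (-0.47, SE 0.08, adjusted p = 0.0162), though not without replicate 1 of control cells or replicate 2 of YOX1 cells at that time. BUD3, which acts with Bud4, and the cytokinesis proteins CYK3 and INN1 did not pass at any time and lay between -0.11 and 0.12 at 2 h and 4 h.

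Of the 8 other members 1 was lower in YOX1 cells at 2 h and 4 at 4 h, and all 8 had a log2 change below 0 at both times. KIN3 (YAR018C, chrI:170396-171703) encodes a kinase related to NIMA. It was at 37.4 and 37.6 FPKM in YOX1 cells and 35 and 37.2 FPKM in control cells at 0 h. At 2 h its level was 5.39 and 5.29 FPKM in YOX1 cells, against 17.8 and 16.7 FPKM in control cells, and at 4 h 9.38 and 7.49 FPKM in YOX1 cells, against 31.6 and 22.6 FPKM in control cells. YOX1 cells were far below control cells at both times. KIN3 was at 30.2% of the control level at 2 h (log2 change -1.55, SE 0.15, adjusted p = 0.00159) and at 30.3% at 4 h (-1.61, SE 0.15, adjusted p = 0.000557).

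PMP1 (YCR024C-A, chrIII:162945-163067) encodes a small regulatory subunit of the plasma membrane proton pump. It was at 4024 and 2669 FPKM in YOX1 cells and 2837 and 3018 FPKM in control cells at 0 h, at 1866 and 1902 FPKM in YOX1 cells, against 2294 and 2409 FPKM in control cells, at 2 h. At 4 h PMP1 was at 1990.0 and 1834 FPKM in YOX1 cells, against 4253 and 3025 FPKM in control cells. Its gene is very short, which makes its FPKM less certain than those of longer genes, and the replicates were far apart at 0 h in YOX1 cells and at 4 h in control cells. The 4 h difference of -0.95 (SE 0.19, adjusted p = 0.0255) was not called without control replicate 1 (-0.72) or without either YOX1 library at 4 h (-1.02 and -0.88).

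ALK1 (YGL021W, chrVII:454785-457067), a haspin-like kinase, had 33.5 and 29.7 FPKM in YOX1 cells and 34 and 32.8 FPKM in control cells at 0 h, 15.6 and 16.2 FPKM in YOX1 cells, against 19.3 and 18.8 FPKM in control cells, at 2 h. At 4 h ALK1 was at 17.7 and 16.1 FPKM in YOX1 cells, against 27.1 and 20.9 FPKM in control cells. The strains were apart after treatment, by a smaller step than KIN3. Its 4 h difference of -0.52 (SE 0.11, adjusted p = 0.0289) was lost without library scaling (-0.47), without control replicate 1 (-0.35) and without either YOX1 library at 4 h (-0.60 and -0.43). NCE102 (YPR149W, chrXVI:829918-830439), an eisosome protein of the plasma membrane, was at 1154 and 1347 FPKM in YOX1 cells and 1324 and 1234 FPKM in control cells at 0 h, at 592 and 649 FPKM in YOX1 cells, against 868 and 842 FPKM in control cells, at 2 h. At 4 h NCE102 was at 537 and 634 FPKM in YOX1 cells, against 687 and 736 FPKM in control cells. It declined in both strains, and the difference between them did not pass at 2 h (-0.50, SE 0.11, adjusted p = 0.0771) or at 4 h (-0.33, SE 0.11, adjusted p = 0.144). KIP2, a kinesin of cytoplasmic microtubules, was lower at 4 h (-0.32, SE 0.06, adjusted p = 0.0214), though not without either control library or YOX1 replicate 2. HST3, a histone deacetylase of the sirtuin family, the nuclear membrane protein SRC1 and the eisosome protein SUR7 did not pass, at -0.25, -0.16 and -0.09 at 4 h.

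Each strain was next compared with its own untreated cells, with libraries of different times treated as independent although the cultures were sampled repeatedly. In YOX1 cells 26 members were lower at 2 h than at 0 h and 3 higher, against 22.2% and 21.6% of all genes. At 4 h 27 were lower than at 0 h and 2 higher, against 27% and 26.4% of all genes. Control cells had 21 members lower at 2 h and 2 higher, against 19.3% and 18.4% of all genes, and at 4 h 15 lower and 2 higher, against 26% and 25.1%. The median log2 change from 0 h was -0.70 at 2 h and -0.62 at 4 h in YOX1 cells, and -0.38 at 2 h and -0.19 at 4 h in control cells. The counts of higher members were small and turned on single libraries. In YOX1 cells they were 0 at 2 h without replicate 1 at 0 h or replicate 2 at 2 h and 1 without replicate 1 at 2 h. At 4 h 1 was left without replicate 2 at 0 h or replicate 1 at 4 h. In control cells 1 was left at 2 h without any 1 of the 4 libraries, and 1 at 4 h without replicate 2 at 0 h. The counts of the 2 strains each rest on their own 0 h libraries and do not by themselves test a difference between them.

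CLB1 moved in opposite directions in the strains. It fell in YOX1 cells at 2 h (-0.60, SE 0.12, adjusted p = 0.00467) and at 4 h (-0.93, SE 0.12, adjusted p = 0.000364), while in control cells it rose at 2 h (0.37, SE 0.12, adjusted p = 0.0421) and at 4 h (0.99, SE 0.12, adjusted p = 0.000283). The rise at 2 h in control cells was lost on leaving out any 1 of its 4 libraries and without scaling, and the other 3 changes kept their calls in every alternative. BFA1 was higher after treatment in both strains, by 0.21 in YOX1 cells and 0.28 in control cells at 2 h and by 0.31 in YOX1 cells and 0.22 in control cells at 4 h. The control call at 4 h was lost without control replicate 2 at 0 h, without scaling (0.11, adjusted p = 0.176) and with the spread of the compared libraries (adjusted p = 0.0641). The YOX1 call at 2 h was lost without YOX1 replicate 1 at 0 h, without replicate 2 at 2 h and with the spread of the compared libraries (adjusted p = 0.0985). LTE1 and NET1 were higher in YOX1 cells at 2 h (0.19 and 0.19), BUB2 at 4 h (0.37), each by a small change that leaving out 1 library could undo. HOF1 had the largest fall of the control cells (-1.61 at 2 h, SE 0.19, adjusted p = 0.000491) and KIN3 that of the YOX1 cells (-2.57 at 2 h, SE 0.15, adjusted p = 1.19e-05).

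**Figure D4:**
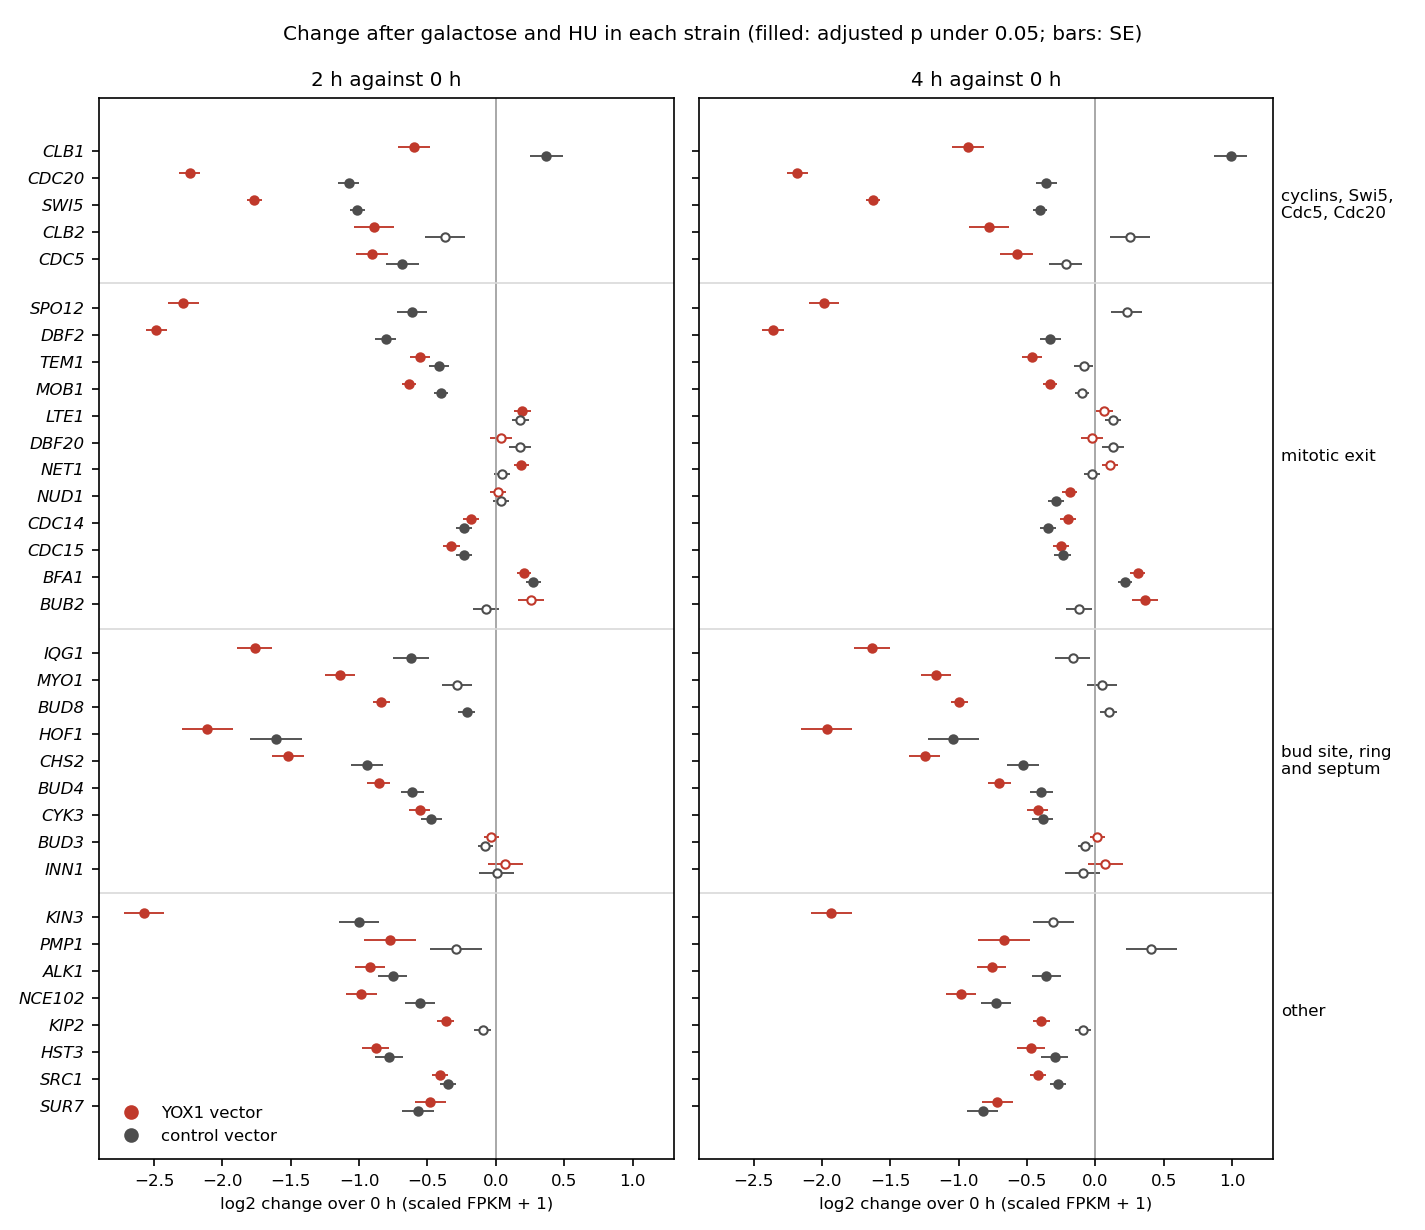
Log2 change of scaled FPKM + 1 from 0 h (horizontal axis) at 2 h and at 4 h for each of the 34 genes, in YOX1 cells (upper, red) and control cells (lower, grey), with bars for the SE and filled points for an adjusted p under 0.05. In control cells many genes lie nearer to 0 at 4 h than at 2 h, with CLB1 to the right of 0 at both times, and in YOX1 cells CDC20, SPO12, DBF2, HOF1 and KIN3 lie furthest to the left at both times.

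Between 2 h and 4 h, a comparison added after the values were seen, 16 members were higher at 4 h than at 2 h in control cells and 1 (NUD1) lower, against 9.64% and 8.61% of all genes. In YOX1 cells 3 members were higher (HST3, KIN3 and MOB1) and 0 lower, against 5.82% and 5.18% of all genes, with 3 lower before adjustment at a p under 0.05. The 16 in control cells were all 5 cyclins and regulators, with SPO12, DBF2, MOB1, TEM1, IQG1, BUD8, CHS2, KIN3, ALK1, HST3 and PMP1, and the largest rises were those of SPO12 (0.84, SE 0.11, adjusted p = 0.00285) and CDC20 (0.72, SE 0.08, adjusted p = 0.00115). In YOX1 cells these 2 genes changed by 0.30 and 0.06 and did not pass. Without library scaling 9 members were higher in control cells, and 6 without control replicate 1 at 2 h, 5 without replicate 2 at 2 h, and 5 without replicate 1 at 4 h. The fall of NUD1 was not called without control replicate 2 at 2 h. In YOX1 cells 1 member was higher without replicate 1 at 2 h and 0 without replicate 2 at 2 h or replicate 1 at 4 h. In control cells CDC20, SWI5, SPO12, DBF2 and MOB1 were the 5 called higher whichever library was left out. For the difference between the strains in the change from 2 h to 4 h, 0 members were called in either direction, against 0.0726% of all genes lower and 0.0145% higher, and before adjustment 8 lay below 0 and 0 above it at a p under 0.05.

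The difference between the strains in their change from 0 h was tested directly. At 2 h it was below 0 for 7 members and above 0 for 0, against 0.639% and 0.102% of all genes, with 1 member above 0 at an unadjusted p under 0.05. At 4 h it was below 0 for 10 members and above 0 for 0, against 1.96% and 0.523% of all genes, again with 1 above 0 at an unadjusted p under 0.05. SPO12 had a difference of -1.67 at 2 h (SE 0.16, adjusted p = 0.0039) and -2.21 at 4 h (SE 0.16, adjusted p = 0.000388), the largest at 4 h, and DBF2 had -1.68 at 2 h (SE 0.11, adjusted p = 0.000673) and -2.03 at 4 h (SE 0.11, adjusted p = 0.000109). SWI5, CDC20, SPO12 and DBF2 were called at both times in every alternative. At 2 h BUD8, IQG1 and KIN3 were called as well, but most fits without 1 library lost these calls. Such a fit also has fewer libraries. Where the call was lost in this way, the difference lay between -1.05 and -1.24 for IQG1. It lay between -1.52 and -1.62 for KIN3 and between -0.55 and -0.66 for BUD8. IQG1 lost its call without any 1 of the 8 libraries, with a pseudocount of 5, with no filter and without scaling. BUD8 lost it without any 1 of 7 libraries, without scaling and with the spread of the compared libraries, and KIN3 without any 1 of 7 libraries. This left 4 members without either control library at 0 h or 2 h or without YOX1 replicate 1 at 2 h. These comparisons share the libraries of the vector comparisons above and are not independent of them.

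Other genes of the same pathway were set beside the members. Of all genes, 1.68% were lower at 2 h and 4.31% at 4 h, with a median log2 change of 0.00 and 0.01. Of 9 further genes of the CLB2 cluster, 2 were lower in YOX1 cells at 2 h and 6 at 4 h, with none higher. The median of these 9 was -0.33 at 2 h and -0.43 at 4 h. Among those lower at 4 h were YNL058C (-1.65), YML119W (-1.29), MMR1 (-1.14), which carries mitochondria into the bud, RAX2 (-0.61), a bud site protein, and FRK1 (-0.37). Of 9 further genes of anaphase and mitotic exit, among them PDS1, ESP1, CDH1 and AMN1, 0 were called at 2 h or 4 h. Without adjustment 1 gene at 2 h and 0 at 4 h had a p under 0.05, and the median was -0.02 at 2 h and -0.04 at 4 h. Of 7 genes that Swi5 activates, 1 was lower at 2 h (ASH1, -0.75) and 3 at 4 h (ASH1, -1.10, PCL2, -0.55, and RME1, -0.53). SIC1, PCL9, EGT2 and CDC6 did not pass, and the median of the 7 was -0.07 at 2 h and -0.20 at 4 h. Of the factors that act on the cluster, YHP1 was lower at 2 h (-1.18, SE 0.18, adjusted p = 0.0157) and at 4 h (-2.19, SE 0.18, adjusted p = 0.000301), FKH2 was lower at 4 h (-0.72, SE 0.09, adjusted p = 0.00312), and MCM1, FKH1 and NDD1 did not pass, at -0.05, 0.32 and 0.02 at 4 h.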

How the data were processed

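Total RNA depleted of ribosomal RNA was sequenced in 12 libraries with a kit that does not keep the strand. The authors aligned 50-base reads to sacCer3 with TopHat2 and quantified genes with Cufflinks and Cuffdiff, and deposited FPKM for 7126 genes in each library, with an interval. Depth is not given by FPKM. It was implied by reading the interval as 2 SDs on either side, under which 50.4% of numbers under 30 lay within 0.05 of whole, so fragments are approximate and count tests were not run.

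Libraries were scaled by the median ratio to the geometric mean, 1 was added and log2 taken, so that changes of weakly expressed genes are understated. Genes averaging 1 FPKM or more (6887) were fitted in one limma 3.58.1 model (R 4.3.3) with 6 group means and a trend on expression (6 residual and 1.81 prior degrees of freedom). Tests were two-sided, and a call required an adjusted p under 0.05 (Benjamini-Hochberg, per comparison). Library values are FPKM as deposited, and percentages of the control level come from scaled means. The model was tested on simulated data with noise drawn independently for each library. That test cannot show how calls hold where libraries share a culture.

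The members, their 4 roles, the lists of other genes and the motifs were chosen with earlier results of these data known. Library values are given for the 5 cyclins and regulators and, in the other 3 roles, for the 4 members with the largest absolute change at 4 h; other members were named to account for all 34. One gene of the lists is not reported here by name. Of 6048 genes matched to RefSeq's R64 annotation by identifier, 5994 had the same coordinates. Alternatives were another pseudocount, filter, scaling, spread, robust moderation, a replicate block and leaving out each library.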

Additional observations from a re-analysis of the deposited data

Results flagged for a closer look

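For 17 combinations of a member and a time, the change from 0 h differed between YOX1 and control cells in the test of that difference itself (limma, adjusted p under 0.05), and in all 17 the change in YOX1 cells minus that in control cells was below 0. At 2 h the differences in log2 change were -1.68 for DBF2, -1.67 for SPO12, -1.57 for KIN3, -1.16 for CDC20, -1.14 for IQG1, -0.75 for SWI5 and -0.62 for BUD8. At 4 h they were -2.21 for SPO12, -2.03 for DBF2, -1.92 for CLB1, -1.82 for CDC20, -1.62 for KIN3, -1.47 for IQG1, -1.22 for SWI5, -1.21 for MYO1, -1.09 for BUD8 and -1.03 for CLB2. CLB2 at 4 h lay closest to the threshold and lost its call on leaving out 6 of the 8 libraries one at a time, all but control replicate 2 at 4 h and YOX1 replicate 1 at 4 h. It was also lost with a replicate block (adjusted p = 0.0519), with no filter on low values (0.0576), without scaling (0.0618) and with the spread of the compared libraries (0.148). At 2 h IQG1 lost its call without any 1 of the 8 libraries, and BUD8 and KIN3 each without any 1 of 7.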

How the results depend on the processing

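Each group had 2 libraries, so calls rest on a spread shared over the groups, and small changes near the threshold could not be resolved at this depth and number of libraries. When the spread was estimated from the compared libraries alone, members lower in YOX1 cells at 4 h numbered 6 instead of 17 (66 instead of 297 of all genes; at 2 h 43 instead of 116), members higher at 2 h than at 0 h in YOX1 cells 0 instead of 3, members higher at 4 h than at 2 h 3 instead of 16 in control cells and 0 instead of 3 in YOX1 cells, and members lower in that comparison in control cells 0 instead of 1. Without scaling, 1 member instead of 2 was higher than at 0 h in control cells at 2 h, in control cells at 4 h and in YOX1 cells at 4 h, 9 instead of 16 rose and 3 instead of 1 fell between 2 h and 4 h in control cells, and 1 instead of 0 fell in YOX1 cells, as with upper quartile scaling (1). Without scaling the median of all genes moved to -0.11 in control cells at 4 h against 0 h, the calls between vectors at 4 h were 225 lower and 201 higher instead of 297 and 132, and calls between 4 h and 2 h were 1291 lower and 416 higher instead of 593 and 664 in control cells. Of the calls over all genes, 65.1% instead of 50.9% were lower in control cells at 4 h against 0 h, 63.4% instead of 50.6% in YOX1 cells, and 74% instead of 47.1% in YOX1 cells at 4 h against 2 h. Upper quartile scaling gave 58.9% instead of 47.2% in control cells and 61.4% in YOX1 cells for 4 h against 2 h. The sign of 0 called member changes turned under another scaling. On leaving out 1 library, members lower in YOX1 cells numbered 7 to 8 at 2 h and 12 to 15 at 4 h, and those whose change from 0 h was lower 4 to 5 at 2 h and 9 to 11 at 4 h. Members higher than at 0 h then numbered 1 to 1 at 2 h and 1 to 3 at 4 h in control cells, and 0 to 2 at 2 h and 1 to 2 at 4 h in YOX1 cells. Between 2 h and 4 h, 5 to 15 were higher and 0 to 1 lower in control cells, and 0 to 4 were higher in YOX1 cells. The cultures were sampled at 0 h and again at 2 h and 4 h, so libraries of a strain at different times can share a culture. The main model treats them as independent, and the adjusted p of each change over time assumes this. The labels do not say that replicate numbers pair the samples. Deviations of same-numbered libraries correlated at -0.12 to 0.42 over 15 pairs of groups, 5 of them above 0.1. Among YOX1 2 h, YOX1 4 h and control 4 h they were 0.42, 0.41 and 0.29. No pairing was taken in the main model. With a replicate block 12 members were lower at 2 h (BUD4 and TEM1 gained) and 17 at 4 h. In the difference of the change from 0 h it added CLB1 and MYO1 at 2 h and removed CLB2 at 4 h, and within strains it added MYO1 and LTE1 in control cells at 2 h and BUD4, HOF1 and MYO1 between 2 h and 4 h. Of 663 values of single members between the vectors under the alternatives, 616 kept direction and call, 25 lost the call, 3 gained it, 19 uncalled ones changed sign and 0 called ones did. Where no construction is named, the cause was not tested.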
